A study of Mus musculus with 10 samples.

Results

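The BCL2 family survival genes described here are 10 genes chosen by name, namely the anti-apoptotic Bcl2, Bcl2l1 and Mcl1, the effectors Bax and Bak1, and the BH3-only genes Bcl2l11, Bbc3, Pmaip1, Bid and Bmf. Of these, 9 were measured by 11 probe sets that carry exactly 1 gene symbol, among 22180 genes on the arrays. Bax, the other effector, had no probe set named for it in the annotation used and was not analysed here. The arrays hold bone marrow plasma cells sorted as B220-negative and Blimp1-positive, from 5 untreated mice and 5 that had received rapamycin, which inhibits mTOR complex 1, with 1 mouse per array. All 10 mice, the untreated ones included, were of the strain B6.BLIMP1 +/GFP, so that a Blimp1 allele carried GFP in both groups. No dose, length of treatment, age or sex of the mice is stated in the sources used here.

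Proteins of this family decide whether a cell starts apoptosis at its mitochondria. BAX and BAK form pores in the outer mitochondrial membrane, the anti-apoptotic members hold them in check, and the BH3-only members bind and block the anti-apoptotic ones or activate BAX and BAK directly. Plasma cells that live long in the bone marrow depend on MCL-1 in mice, which signals through the receptor BCMA maintain, while BCL-2 keeps many resting lymphocytes alive. mTOR complex 1 acts in large part on translation, and arrays measure transcripts and not protein.

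The regulatory sequences shown first are those of the member with the largest difference between the groups, Bcl2, and of the BH3-only genes known as targets of FOXO transcription factors, Bcl2l11 and Bbc3. They are from RefSeq, build GRCm38.p6, which holds 16 promoter windows for 9 of the 10 members. The 250 bases before the start of Bcl2, on the minus strand at chr1:106714291-106714540, had a GC content of 74.8% and held a half-site of the cAMP response element bound by CREB, TGACG, shown in capitals. The 30-base stretches of Bcl2l11, at chr2:128125800-128125829, and of Bbc3, at chr7:16310083-16310112, both written on the plus strand, surround the FOXO core GTAAACA, which in Bbc3 reads on the opposite strand as TGTTTAC.
Bcl2: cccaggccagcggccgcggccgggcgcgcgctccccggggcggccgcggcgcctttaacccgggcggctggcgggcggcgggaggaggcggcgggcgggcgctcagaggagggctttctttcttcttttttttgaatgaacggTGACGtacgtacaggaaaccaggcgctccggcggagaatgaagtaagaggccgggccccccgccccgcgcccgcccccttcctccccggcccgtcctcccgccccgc
Bcl2l11: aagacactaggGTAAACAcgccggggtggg
Bbc3: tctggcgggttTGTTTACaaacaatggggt

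Both motifs were searched on both strands in the 250 bases before each start, and they do not overlap each other in these windows. The FOXO core was found in 3.17% of all 32851 windows of that length and the CREB half-site in 17.8%. The half-site was also present in a window each of Bbc3 and Bmf, with 2 matches in the latter. The windows of Bcl2l1, Mcl1, Bax, Bak1 and Bid held neither set of letters. A match describes the letters in the window only.

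The sorted cells carried the transcripts that define plasma cells. All 12 measured genes of the plasma cell list, of 13 listed, lay above the upper quartile of every array (6.51 to 6.58 on the log2 scale), with array means of the list from 11.23 to 11.31 in untreated and from 11.25 to 11.35 in rapamycin arrays. Within that list Prdm1, the gene of the Blimp1 sort marker, averaged 9.71 ± 0.23 in untreated and 10.12 ± 0.06 in rapamycin arrays (SD, n = 5 each). All 5 rapamycin arrays lay above the untreated ones, as for 1.48% of all genes, and the log2 difference was 0.41 (SE 0.09, 1.33-fold, adjusted p = 0.117 in limma). Mzb1, also on the list, had no overlap either, with a difference of 0.11 (adjusted p = 0.425). Without adjustment, these 2 of the 12 had a p under 0.05 and were higher, against 6.13% of all genes. Creld2 was the 1 lower, at -0.13 (adjusted p = 0.449), against 3.26%. Rapamycin replicate 4 stood apart on the first principal component, with a score of 22.3 against 4.17 to 8.85 for the other rapamycin arrays. Untreated replicate 1 scored -1.16, where the other untreated arrays lay between -15.4 and -8.09. Xist, the noncoding RNA of X inactivation, ranged from 3.75 to 3.995 in untreated and from 8.87 to 9.62 in rapamycin arrays, and the Y-linked Eif2s3y from 7.41 to 8.68 and from 3.58 to 4.06. Treatment and sex therefore cannot be told apart for any difference given here. Fewer cells of a type and less RNA per cell cannot be told apart either.

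No measured member of the family passed the test between the groups, and Bcl2 came closest, at a level 1.42-fold higher with rapamycin. The comparison asks whether transcripts of the survival machinery of marrow plasma cells differ when mTOR is inhibited in the mouse. At an adjusted p under 0.05 in limma, a linear model with moderated variances fitted to all genes, 0 of 9 members were higher and 0 were lower, against 0.126% and 0.0271% of all genes. Without adjustment, 1 of the 9, Bcl2, had a p under 0.05 and was higher, and 0 were lower, against 6.13% and 3.26% of all genes. The median log2 difference, rapamycin minus untreated, was 0.13 for the 3 anti-apoptotic members and 0.05 for the 6 pro-apoptotic members measured, against 0.01 for all genes tested. With 3 genes the median is the value of 1 of them, Bcl2l1, and the others lay at -0.03 for Mcl1 and 0.50 for Bcl2.

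**Figure D1:**
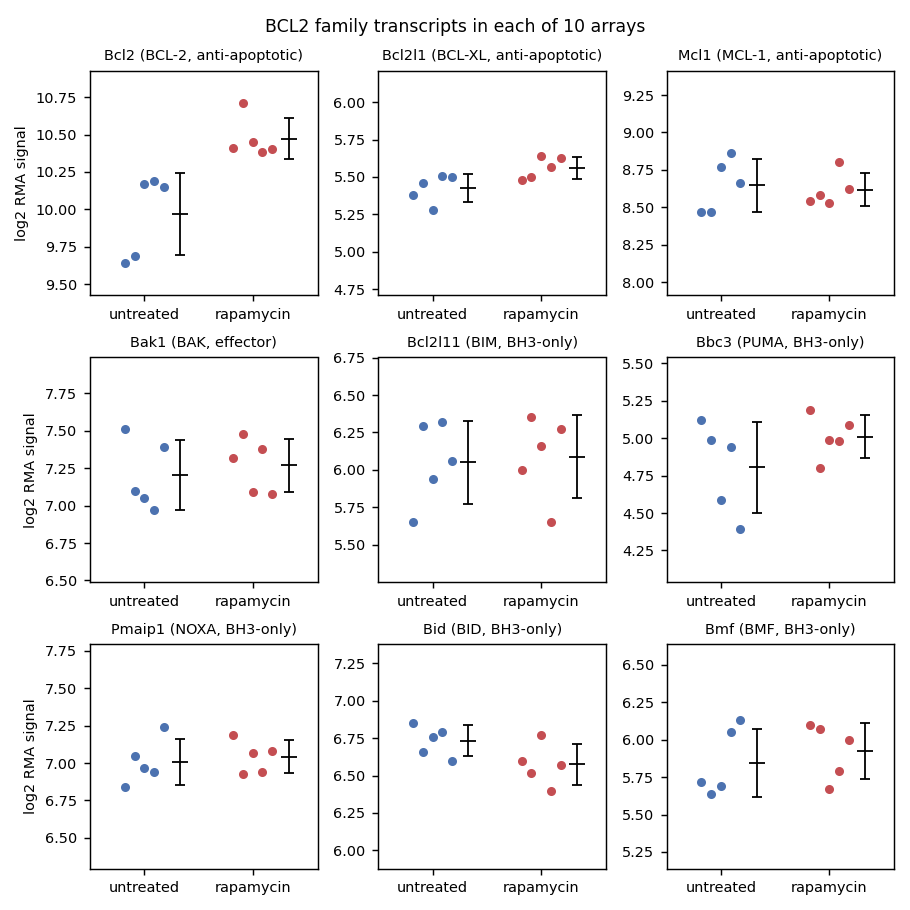
The log2 signal (RMA, vertical axes, each spanning the same range of 1.5 units) of the 9 measured genes is plotted for the 5 untreated and 5 rapamycin arrays, with black bars for the mean ± SD of each group. Only for Bcl2 do the rapamycin arrays, from 10.38 to 10.71, all lie above the untreated ones, from 9.64 to 10.19.

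Bcl2 encodes the founding anti-apoptotic member, which holds BAX and BH3-only proteins at the mitochondrial membrane. On its brighter probe set the log2 signal was 9.64, 9.69, 10.17, 10.19 and 10.15 in untreated replicates 1 to 5, and 10.41, 10.71, 10.45, 10.38 and 10.40 in rapamycin replicates 1 to 5. The groups did not overlap, untreated replicates 1 and 2 lay well below the other untreated arrays, and rapamycin replicate 2 was the highest. Groups without overlap in that direction were seen for 1.48% of all genes.

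The means of Bcl2 were 9.97 ± 0.28 in untreated and 10.47 ± 0.14 in rapamycin arrays (SD, n = 5 each). The log2 difference was 0.50 (SE 0.11, 95% interval 0.27 to 0.74, adjusted p = 0.0929 in limma), or 1.42-fold with an interval of 1.20 to 1.67. It missed the threshold over all genes, would pass a looser one of 0.1, as 0.307% of all genes did in that direction, and 0.537% of all genes had a larger difference in either direction. A call was made on the authors' shorter filtered table, where adjusted p was 0.019 over 10720 genes, and where 0.662% of the genes were called higher. The sources used here do not state the rule of that filter. The size of the difference was 0.42 without untreated replicate 1, 0.44 without untreated replicate 2, 0.45 without rapamycin replicate 2 and 0.53 without rapamycin replicate 4, with adjusted p of 0.134, 0.193, 0.194 and 0.132 in limma.

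A second, dimmer probe set of Bcl2 lay below the array median on every array except rapamycin replicate 5. The array medians ran from 4.92 to 4.99. Its log2 signal was 4.35, 4.47, 4.18, 4.69 and 4.47 in untreated replicates 1 to 5, and 4.75, 4.67, 4.67, 4.52 and 5.04 in rapamycin replicates 1 to 5. Here the groups overlapped, since untreated replicate 4 was above 3 of the rapamycin arrays. The difference was 0.30 (SE 0.12, adjusted p = 0.508 in a limma fit over every row of the table), in the same direction as on the brighter one. With both probe sets averaged the difference was 0.40 (adjusted p = 0.148 in limma).

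**Figure D2:**
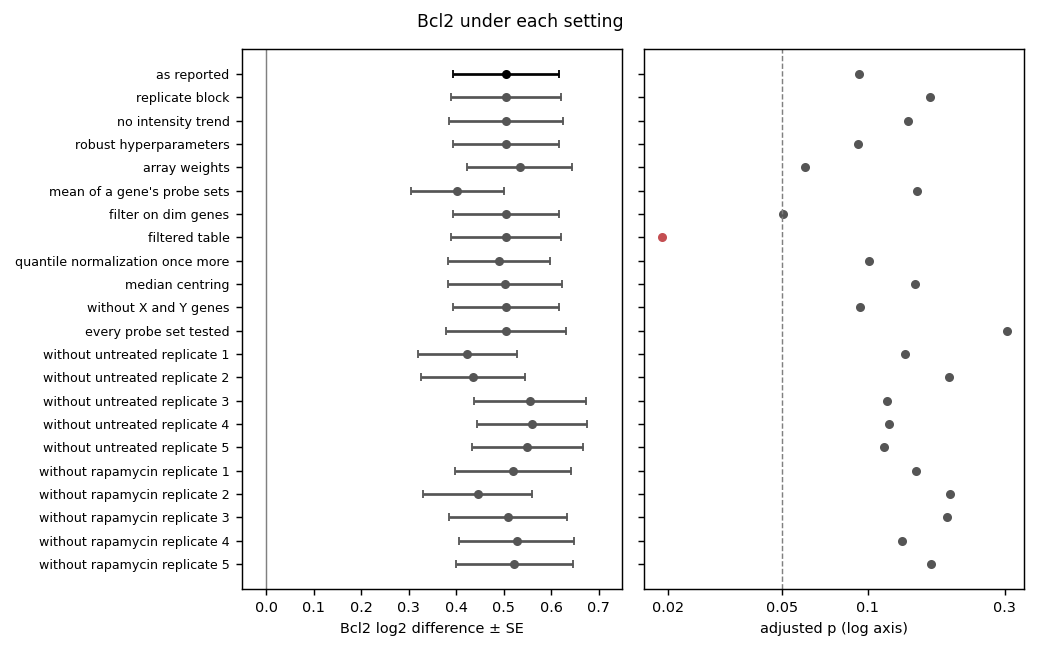
The left panel gives the log2 difference of Bcl2 ± SE, and the right panel its adjusted p on a log axis with a dashed line at 0.05, for the fit described in the text at the top, marked as reported, and each alternative below it. The difference stays between 0.40 and 0.56, and adjusted p runs from 0.019 on the filtered table, in red, to 0.306 when every row of the table is tested. Alternatives that change only the variance or the genes tested, and the replicate block, cannot move the difference from 0.50.

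Markers of other marrow cells were measured beside Bcl2. Of 10 measured mature B cell markers, a cell type that also expresses Bcl2, 0 passed the test, and their mean ranged from 6.81 to 6.97 in untreated and from 6.86 to 6.98 in rapamycin arrays. Their summed signal was 12.25 to 12.45 and 12.36 to 12.44 on the log2 scale. Without adjustment, 2 of the 10 had a p under 0.05 and were higher, and 3 were lower, against 6.13% and 3.26% of all genes. Higher were Cr2 and Ebf1, with log2 differences of 0.37 and 0.36, and lower Cd22, Bach2 and Pax5, with -0.44, -0.39 and -0.18. Their adjusted p ran from 0.176 to 0.513 in limma, and the list mean does not show these opposed differences. Markers of neutrophils, 14 of 14 measured, ranged from 6.20 to 6.83 and from 6.59 to 7.04, with summed signals of 10.37 to 11.19 and 10.81 to 11.50. Of these 14, 0 passed the test, 13 had a positive difference, and the median log2 difference was 0.16, against 0.01 for all genes. Without adjustment, 5 had a p under 0.05 and were higher, and 0 were lower, against 6.13% and 3.26% of all genes. These were Elane, Camp, Fcnb, Prtn3 and Mmp9, whose log2 differences were 0.56, 0.54, 0.38, 0.35 and 0.26, with adjusted p from 0.287 to 0.50 in limma. T cell markers, 6 of 8 measured, had means of 4.88 to 5.22 and 4.89 to 5.08 and summed signals of up to 8.14 in untreated and 7.91 in rapamycin arrays. Arrays give no true zero. Of the mature B cell markers, 4 lay above the upper quartile on all arrays, Cd79a, Cd79b, Ebf1 and Ms4a1, with untreated means of 11.37, 10.91, 7.79 and 7.70, and 1 lay below the array median on all, while Pax5 averaged 4.98. Of the neutrophil markers, 3 lay above the upper quartile on all arrays, Ngp, S100a8 and S100a9, and 0 lay below the median on all. These 3 averaged 8.97, 8.11 and 7.79 in untreated and 9.36, 8.23 and 7.94 in rapamycin arrays. Of the T cell markers, 0 lay above the upper quartile on all arrays and 2 lay below the median on all. Cd3e averaged 4.89 in untreated arrays, and Cd4 5.81 in untreated and 6.22 in rapamycin arrays. The part of other cells, and of the Prdm1 difference, in the Bcl2 difference was not tested.

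The genes whose pattern over the 10 arrays was nearest to that of Bcl2 were Prg2, Calhm6 and Scarb2, among 11089 other genes of above-median signal. The measure was the root mean square distance between log2 values centred on each gene's mean, which was 0.12 for Prg2, 0.14 for Calhm6 and 0.14 for Scarb2, against a median of 0.34 over the genes compared. Their own log2 differences were 0.42, 0.43 and 0.42. The centring was over both groups, so the distance includes the group difference, and a difference near that of Bcl2 follows largely from the choice. Prg2 encodes the major basic protein of eosinophil granules and was the only one of the 3 to pass the test (adjusted p = 0.0473 in limma). Another eosinophil granule gene, Epx, averaged 4.49 ± 0.29 in untreated and 4.35 ± 0.18 in rapamycin arrays (SD, n = 5 each). Epx lay below the array median, taken over all rows, on all 10 arrays. The 11 measured eosinophil, basophil and mast cell markers, of 13 and with Prg2 among them, had means of 5.07 to 5.39 in untreated and 5.08 to 5.36 in rapamycin arrays. Their summed signals were 12.305 to 12.81 and 12.90 to 13.05, where Prg2 alone ran from 12.20 to 12.72 and from 12.84 to 12.99. Of these markers 6 lay below the array median on all arrays, and 2, Prg2 and Il5ra, above the upper quartile on all. Il5ra had a log2 difference of 0.16 (adjusted p = 0.805 in limma). For Mcl1 the nearest were Cct3, 2310033P09Rik and Izumo1r, at distances of 0.05, 0.05 and 0.05 against a median of 0.21. The distance was not scaled to the spread of a gene, so for Mcl1 it favours genes that vary little.

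Mcl1, which encodes the short-lived protein on which plasma cells depend in mice, had a difference close to 0 between the groups. Its log2 signal was 8.47, 8.47, 8.77, 8.86 and 8.66 in untreated replicates 1 to 5, and 8.54, 8.58, 8.53, 8.80 and 8.62 in rapamycin replicates 1 to 5. The rapamycin arrays all lay within the untreated range. Means were 8.65 ± 0.18 and 8.62 ± 0.11 (SD, n = 5 each), and the log2 difference was -0.03 (SE 0.09, 95% interval -0.23 to 0.17, adjusted p = 0.966 in limma). The interval spans 0.853-fold to 1.12-fold, so that a larger transcript change than that lies outside it. The sign turned without untreated replicate 4, where the difference was 0.02. The dimmer probe set of Mcl1 differed by -0.04 (adjusted p = 0.936 in the limma fit over every row).

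Bcl2l1 encodes BCL-XL, an anti-apoptotic relative of BCL-2 with a role in B cell and red cell survival. Its log2 signal was 5.38, 5.46, 5.28, 5.51 and 5.50 in untreated replicates 1 to 5, and 5.48, 5.50, 5.64, 5.57 and 5.63 in rapamycin replicates 1 to 5. The groups overlapped, with 3 rapamycin arrays above every untreated one. The log2 difference was 0.13 (SE 0.08, 95% interval -0.04 to 0.31, adjusted p = 0.671 in limma), within 0.973-fold to 1.24-fold. This gene varied little, with a within-group SD of 0.09, larger than that of 8.2% of all genes. It was 1 of 2 measured members that the filtered table lacks, the other being Pmaip1.

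**Figure D3:**
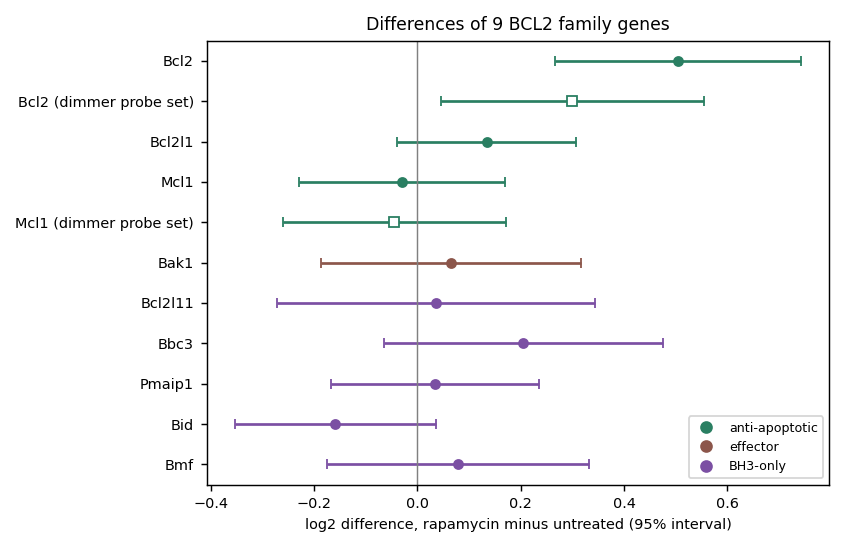
The log2 difference, rapamycin minus untreated, is plotted with its 95% interval for the 9 genes, coloured by role. Filled circles are the brightest probe set of a gene in the fit over genes, and open squares the dimmer ones of Bcl2 and Mcl1 in the fit over every probe set. The interval of Bcl2, 0.27 to 0.74, and that of its dimmer probe set, 0.05 to 0.55, lie above 0, before any adjustment, and those of the other genes span it.

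Bak1 was the effector measured, and its product BAK sits in the outer mitochondrial membrane. Untreated replicates 1 to 5 had a log2 signal of 7.51, 7.10, 7.05, 6.97 and 7.39, and rapamycin replicates 1 to 5 one of 7.32, 7.48, 7.09, 7.38 and 7.08. The values of the groups lay over each other. Between the means the log2 difference was 0.07 (SE 0.12, 95% interval -0.19 to 0.32, adjusted p = 0.926 in limma).

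Bcl2l11 encodes BIM, a BH3-only protein that binds every anti-apoptotic member and limits lymphocyte survival. In untreated replicates 1 to 5 it had a log2 signal of 5.65, 6.29, 5.94, 6.32 and 6.06, and of 6, 6.35, 6.16, 5.65 and 6.27 in rapamycin replicates 1 to 5. An array of each group, untreated replicate 1 and rapamycin replicate 4, lay low at 5.65. The within-group SD of 0.28 was the largest of the 9 genes and above that of 94.7% of all genes. Rapamycin minus untreated gave a log2 difference of 0.04 (SE 0.14, 95% interval -0.27 to 0.34, adjusted p = 0.974 in limma), and its sign turned without untreated replicate 1, where it was -0.06. It was 0.15 without rapamycin replicate 4.

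Bbc3 encodes PUMA, the BH3-only protein induced by p53 and by FOXO factors. Signals were 5.12, 4.99, 4.59, 4.94 and 4.39 on the log2 scale in untreated replicates 1 to 5, and 5.19, 4.80, 4.99, 4.98 and 5.09 in rapamycin replicates 1 to 5. Untreated replicates 3 and 5 lay low, and the other untreated arrays were among the rapamycin values. This gave a log2 difference of 0.20 (SE 0.13, 95% interval -0.07 to 0.47, adjusted p = 0.676 in limma), the largest of the pro-apoptotic members. Its signal was above the array median on only 6 of 10 arrays. The genes that hold the FOXO core shown above thus differed by 0.04 and 0.20, and neither passed.

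Pmaip1 encodes NOXA, which binds MCL-1 above all and promotes its breakdown. Its log2 signal ran from 6.84 to 7.24 with a median of 6.97 in untreated arrays, and from 6.93 to 7.20 with a median of 7.07 in rapamycin arrays. The log2 difference was 0.03 (SE 0.09, 95% interval -0.17 to 0.24, adjusted p = 0.957 in limma). The intervals of Mcl1 and Pmaip1 thus both spanned 0, as did those of the other measured members apart from Bcl2.

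Bid links death receptors to mitochondria once caspase-8 has cut it, and was the BH3-only member with a negative difference. Signals on the log2 scale were 6.85, 6.66, 6.76, 6.79 and 6.60 in untreated replicates 1 to 5, and 6.60, 6.52, 6.77, 6.40 and 6.57 in rapamycin replicates 1 to 5. The groups overlapped, with 3 of the rapamycin arrays below every untreated one. Bid thus had a log2 difference of -0.16 (SE 0.09, 95% interval -0.35 to 0.04, adjusted p = 0.647 in limma), or 0.896-fold. Bmf, whose product BMF responds to loss of attachment and other stress, ran from 5.64 to 6.13 in untreated and from 5.67 to 6.10 in rapamycin arrays. Its log2 difference was 0.08 (SE 0.12, 95% interval -0.17 to 0.33, adjusted p = 0.906 in limma).

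Among the 9 genes, Bcl2 had the largest range over all 10 arrays, 1.07 on the log2 scale, followed by Bbc3 with 0.80 and Bcl2l11 with 0.70. Bcl2l1 had the smallest, 0.36. Bcl2, Mcl1, Bak1 and Pmaip1 lay above the upper quartile of the array on all 10 arrays and Bid on 8, while Bcl2l1, Bcl2l11, Bbc3 and Bmf lay below it on all. Signals of different probe sets depend on their probes, so that these positions give no order of transcript amounts between the genes.

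Other genes of the apoptosis pathway did not pass either. Of 62 other listed genes 54 were measured, and in limma 0 rose and 0 fell at an adjusted p under 0.05, against 0.126% and 0.0271% of all genes. Without adjustment, 3 of the 54 had a p under 0.05 and were higher and 1 was lower, against 6.13% and 3.26% of all genes, shares near or above those of the list. Their median log2 difference was 0.02, against 0.01 for all genes. Further anti-apoptotic genes, 3 of 5 measured, had a median of -0.04, with -0.10 for Bcl2a1a, an NF-kB target of immune cells whose probes can be shared with its close copies, 0.08 for Bcl2l10 and -0.04 for Bcl2l2, which encodes BCL-W. Further pro-apoptotic genes, 4 of 4 measured, also had a median of -0.04. Among them differences were -0.10 for the BH3-only gene Hrk, -0.12 for the BH3-only gene Bik and 0.04 for Bok, a relative of BAX and BAK. More distant BCL2-related genes, 4 of 6 measured, had a median of 0.12, with 0.20 for Bcl2l15, 0.11 for Bcl2l14 and 0.13 for Bcl2l13, a mitochondrial receptor for mitophagy.

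Regulators of the family, 10 of 11 measured, had a median difference of 0.00 and included the pathway gene with the smallest p. Ddit3 encodes CHOP, a stress transcription factor known to repress Bcl2 and to induce Bcl2l11. Its log2 signal was 9.93, 9.40, 9.54, 10 and 9.67 in untreated replicates 1 to 5, and 9.08, 8.95, 9.20, 9.44 and 9.44 in rapamycin replicates 1 to 5. Untreated replicate 2 lay within the rapamycin range and the others above it. The log2 difference was -0.49 (SE 0.12, adjusted p = 0.145 in limma), and on the filtered table, where 0.336% of genes were called lower, adjusted p was 0.0387. Stat5b, which carries cytokine signals to Bcl2 family genes, differed by 0.26 (adjusted p = 0.506 in limma) and Creb1, which encodes CREB, by -0.13 (adjusted p = 0.761).

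The executioners and their inhibitors, 20 of 22 measured, had a median difference of 0.02. Casp12, an inflammatory-type caspase gene near the bottom of the signal range at 3.12 ± 0.10 in untreated arrays, differed by 0.21, Htra2, a mitochondrial protease that counters inhibitors of apoptosis, by 0.25, and the mitochondrial nuclease gene Endog by 0.13, with adjusted p of 0.288, 0.438 and 0.754 in limma. The death receptor list, 6 of 7 measured, had a median of 0.05. Its members Cflar, which encodes the caspase-8 inhibitor c-FLIP, Fadd, the adaptor of death receptors, and Tnfrsf10b, the TRAIL receptor gene, differed by -0.18, 0.18 and 0.14. Survival receptors, 7 of 7 measured, had a median of 0.08, with 0.20 for Cd28, 0.14 for Tnfrsf13c, the BAFF receptor gene, and 0.11 for Tnfrsf17, which encodes BCMA. The smallest adjusted p on the death receptor and survival receptor lists was 0.56 in limma.

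**Figure D4:**
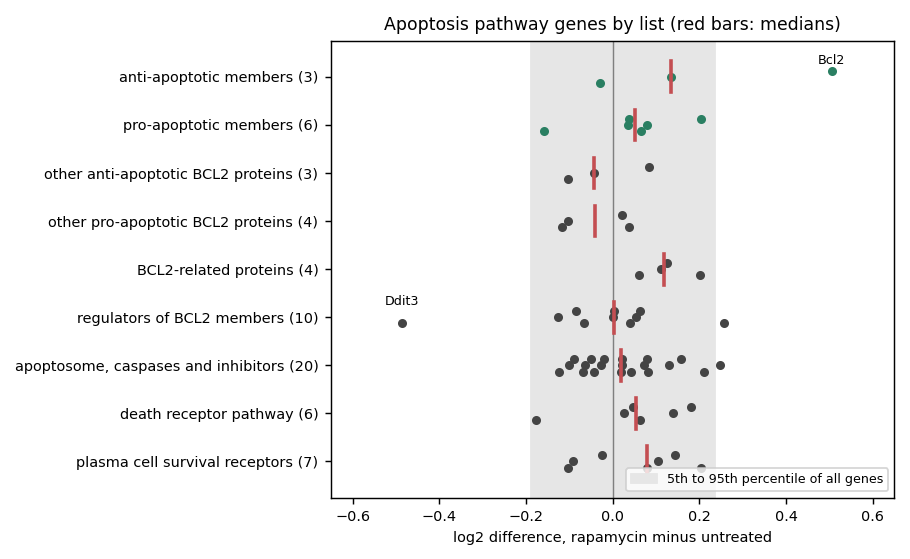
Each point is the log2 difference, rapamycin minus untreated, of a measured gene, by list, with the number of genes in brackets. Red bars are list medians, and the grey band runs from the 5th to the 95th percentile of all genes, -0.19 to 0.24. Bcl2, at 0.50, and Ddit3, at -0.49, lie farthest from 0.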

How the data were processed

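The authors deposited log2 signals from RMA (background correction, quantile normalization, probe summary), per the submitters' processing notes, which state no version or summary level. A shift of all transcripts would not be seen. The whole table has 41345 rows, 23521 of them with 1 gene symbol in the platform annotation. A filtered table has 12280 rows, all equal to the whole table (tolerance 1e-06). Each gene was represented by its brightest probe set.

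Groups came from sample titles, with 5 mice each, so p-values reflect the spread between mice, and the number of arrays limits the precision. Genes were compared with limma 3.58.1 in R 4.3.3 (intensity trend, two-sided, no covariate, no filter, Benjamini-Hochberg over 22180 genes). In simulated data of 22180 genes it recovered 82% of genes changed by a log2 value of 0.5 and 100% of those changed by 1, with 15 false calls. The simulated noise was independent between genes, and more genes were changed than were called in the data, which eases the adjusted threshold. The 82% is a share over genes of any spread, while the within-group SD of Bcl2 was above that of 83.8% of all genes. It is therefore not the recovery rate for Bcl2 in these data. Same-numbered arrays did not deviate together (r from -0.07 to 0.05), so replicate numbers were not taken as pairs.

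All members were named, with every called gene or else the 3 of smallest p of each pathway list, and the 3 nearest genes of Bcl2 and Mcl1. Members, lists and printed sequences were chosen with earlier results of these data known. Pathway genes without a probe set of 1 symbol, such as Trp53, were not analysed here. Figures used matplotlib 3.10.9.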

Additional observations from a re-analysis of the deposited data

Results flagged for a closer look

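Rapamycin replicate 2 stood apart for Bcl2 on its brighter probe set, at 10.71 against 10.45 for the nearest of the other rapamycin arrays. The gap was 0.778 of the group's range, above Dixon's critical value of 0.71 for 5 samples. Of 22 groups tested, 11 probe sets in each of 2 groups, this was the only one to pass, and chance gives about 1 in 20. Without this array the log2 difference of Bcl2 was 0.45 (adjusted p = 0.194 in limma).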

How the results depend on the processing

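Under 22 alternatives for most genes (21 for Bcl2l1 and Pmaip1, absent from the filtered table, and for Bbc3, absent after the filter on dim genes), Bcl2, Bcl2l1, Bak1, Bbc3, Bid and Bmf kept their sign. Many of these alternatives change only the variance, the threshold or the genes tested. The difference itself cannot move in them, nor in the replicate block, and for Bcl2 it stayed at 0.5049. The number of alternatives therefore overstates how far the signs were tested. The difference of Bcl2 ran from 0.40 to 0.56, and adjusted p from 0.019 to 0.306. Members called higher numbered 1, Bcl2, on the filtered table and 1 at a threshold of 0.1, where 0.307% of all genes were higher, and 0 otherwise, with 0 called lower under any alternative. Leaving out each array gave 0 to 0. With array weights adjusted p of Bcl2 was 0.0603, and 0.0504 with dim genes left out. Signs turned without an array for 3 genes with differences smaller than their SE: Mcl1 (range -0.0772 to 0.0232, with 1e-04 and 0.0232 without untreated replicate 3 and 4), Bcl2l11 (range -0.0639 to 0.1456, with -0.0639, -0.03 and -0.01 without untreated replicate 1, rapamycin replicate 2 and rapamycin replicate 5) and Pmaip1 (range -0.0071 to 0.0931, with -0.0071 and -0.0044 without untreated replicate 1 and rapamycin replicate 1). With the replicate block 14 genes were called higher over all genes, against 28 without it, and Bcl2 had an adjusted p of 0.165. Genes called higher numbered 57 with dim genes left out and 71 on the filtered table, where fewer genes were tested, 68 at the threshold of 0.1, 8 with every row tested, where more were, and 15 to 30 without an array, the lowest without untreated replicate 3 or rapamycin replicate 1. Genes called lower, 6 in the fit reported, numbered 12 with array weights, 13 with dim genes left out, 36 on the filtered table, 10 with quantile normalization once more, 24 at the threshold of 0.1, 3 without X and Y genes and 4 to 9 without an array. Of other pathway genes, 1, Ddit3, was called lower on the filtered table. At the same difference, the unadjusted p of Bcl2 in limma was 0.00037 in the fit reported, 9.1e-05 on the filtered table and 0.0022 with every row tested. More than the number of genes tested thus differed between these fits. The causes of the shifts between settings were not tested. No array depth or scan date was available to test.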
